A study of Mus musculus with 6 samples.

Results

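The 10 genes described here encode 5 S100 proteins (S100a4, S100a6, S100a10, S100a11 and S100a13) and 5 annexins (Anxa1, Anxa2, Anxa4, Anxa5 and Anxa6), 10 of the 54232 genes in the count table. They were picked by symbol as members of these calcium-binding families, with their levels in knockout (KO) and wild-type (WT) cells already known. The RNA came from GFP-positive regulatory T (Treg) cells, which restrain immune responses, of mouse spleen. The KO cells were from mice with a conventional knockout of BAF60b, the product of Smarcd2 and a component of the SWI/SNF remodeller of chromatin, and the WT cells from wild-type mice. There were 3 libraries of each genotype, and the study's title concerns the migration of Treg cells. A conventional allele is carried by all cells of the animal and not by Treg cells alone. The driver of GFP and the strain, age, sex and number of mice per library are not stated in the labels, so p-values measure the spread between these libraries, which may be technical in part.

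S100 proteins are small proteins with paired EF-hand calcium sites that, once calcium is bound, expose a surface that grips target proteins such as myosin, other cytoskeletal proteins and annexins. S100a10 is the exception: it does not need calcium and is found mostly in a tetramer with Anxa2 under the plasma membrane. Annexins bind acidic phospholipids of membranes when calcium rises and take part in membrane repair, vesicle traffic and the anchoring of the actin cortex. In T cells, transcripts of both families are typically higher in effector and memory cells than in naive cells.

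In KO Treg cells the 2.32-fold rise of S100a6 was the largest among the 9 members tested, S100a10, S100a13, Anxa4 and Anxa6 rose by smaller factors, and Anxa1, which had few reads in any library, fell. Anxa2, Anxa5 and S100a11 did not pass the test, and S100a4 had too few reads to be tested. Of the 9 members tested with edgeR's quasi-likelihood test, 5 were called higher and 1 lower in KO at a Benjamini-Hochberg adjusted p under 0.05 over 13602 genes. Of all genes tested, 6.45% were called, 3.25% higher and 3.2% lower in KO. Because the members were chosen with this contrast in view, these calls and the adjusted p-values below describe where the members stood and are no independent test. The median log2 fold change (KO minus WT) was 0.32 over the 9 members tested, beside 0.00403 over all genes tested. The members tested had passed a filter on low counts, which only S100a4 among the 10 failed. Anxa1 passed that filter only through its WT libraries, so it could enter the test only as a gene that differed, and its call supports nothing. The 3 KO and 3 WT values did not overlap for 6 members higher and 1 lower in KO, and this held for 25.7% of all genes tested (12.6% higher and 13% lower). In bulk RNA a change in the number of expressing cells and a change in RNA per cell cannot be told apart.

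The sequences before the transcription start are shown for 5 members that stand for the different outcomes: S100a6, with the largest rise among the members tested; S100a4, its near neighbour with almost no reads; S100a11, which did not pass; Anxa4, which rose; and Anxa1, which fell. RefSeq promoters (GRCm38.p6, the assembly behind mm10) were matched by symbol for 8 of the 10 members, all but S100a10 and Anxa6. Anxa4 has a second start with no match, and the start of Anxa1 lies inside the gene as listed in the table. The 250 bases before each start are printed in the direction of transcription, with capitals marking the letters of any of 7 motifs searched on both strands: AP-1 (TGANTCA), RUNX (TGTGGT), NF-kB (the capitals of the Anxa4 sequence), the GC box (GGGCGG), the TATA box (TATAAA), STAT (TTCNNNGAA) and forkhead (TGTTTAC). The printed matches do not overlap each other.
S100a6, chr3:90612644-90612893, plus strand: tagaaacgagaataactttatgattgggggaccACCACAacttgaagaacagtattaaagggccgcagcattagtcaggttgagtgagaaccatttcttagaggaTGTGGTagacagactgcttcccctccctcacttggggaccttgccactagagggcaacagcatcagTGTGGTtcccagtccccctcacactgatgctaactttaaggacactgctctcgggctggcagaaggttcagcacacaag
S100a4, chr3:90603520-90603769, plus strand: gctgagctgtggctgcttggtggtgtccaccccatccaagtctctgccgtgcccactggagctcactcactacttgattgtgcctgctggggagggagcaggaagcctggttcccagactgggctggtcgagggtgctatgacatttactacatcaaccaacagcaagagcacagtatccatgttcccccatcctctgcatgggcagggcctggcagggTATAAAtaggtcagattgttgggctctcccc
S100a11, chr3:93520246-93520495, plus strand: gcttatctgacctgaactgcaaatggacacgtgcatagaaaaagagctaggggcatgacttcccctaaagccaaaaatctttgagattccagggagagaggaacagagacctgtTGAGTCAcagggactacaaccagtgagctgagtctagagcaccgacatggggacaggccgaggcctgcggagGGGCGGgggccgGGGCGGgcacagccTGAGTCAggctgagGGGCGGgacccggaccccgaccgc
Anxa4, chr6:86793585-86793834, minus strand: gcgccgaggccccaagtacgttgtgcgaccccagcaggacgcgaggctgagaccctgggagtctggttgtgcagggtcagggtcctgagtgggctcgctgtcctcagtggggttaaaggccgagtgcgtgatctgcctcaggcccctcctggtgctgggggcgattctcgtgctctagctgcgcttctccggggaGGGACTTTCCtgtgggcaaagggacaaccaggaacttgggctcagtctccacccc
Anxa1, chr19:20390672-20390921, minus strand: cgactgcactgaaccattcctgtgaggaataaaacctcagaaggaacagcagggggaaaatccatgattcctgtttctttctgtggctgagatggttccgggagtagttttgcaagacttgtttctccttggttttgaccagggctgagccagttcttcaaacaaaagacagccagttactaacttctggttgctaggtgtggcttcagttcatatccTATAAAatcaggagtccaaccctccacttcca

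The RUNX letters occurred 3 times before S100a6, at -217 (on the opposite strand), -145 and -79 from the start, and 14% of all 32851 promoter windows of this length held them at least once. The TATA box letters stood before S100a4 at -31, Anxa1 at -32 and Anxa2 (not printed) at -17, and 12.4% of all windows held these letters. The AP-1 letters stood before S100a11, at -136 and -38, and before Anxa2, at -95, and were in 6.75% of all windows. Neither gene passed the test, and a relation of these letters to the outcome was not tested. The GC box letters stood 3 times each before S100a11 and Anxa2 and were in 32.7% of all windows at least once. The share of windows with 3 RUNX or 3 GC box matches was not determined. The full NF-kB letters were found before Anxa4, at -55, and were in 0.140% of all windows. A match describes the letters alone and is not a measured binding site.

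The libraries were alike in depth but not in RNA of other cells or in sex-linked transcripts. Totals were 19365472 to 22502804 reads in KO libraries and 18167053 to 21038091 in WT libraries. Smarcd2 (chromosome 11, 106263179 to 106272972, minus strand) had 58.1, 57.5 and 59.0 CPM (counts scaled to library size after TMM normalization) in KO 1, 2 and 3, against 204.4, 199.3 and 191.9 CPM in WT 1, 2 and 3 (log2 fold change -1.77, edgeR adjusted p = 6.77e-08), and which exons the allele removes is not stated. Of 8 Treg identity genes, all tested, 1 was called (12.5%, beside 6.45% of all genes tested). Ikzf2, encoding Helios, rose (log2 fold change 0.42, edgeR adjusted p = 0.00527), and Foxp3 averaged 595.8 CPM in KO and 557.7 CPM in WT. The summed level of 8 monocyte and macrophage markers was 98.4 CPM in KO 2, 43.7 CPM in KO 1 and 16.4 CPM in KO 3, against 29.3 to 38.6 CPM in WT libraries, and the 6 erythroid markers, at 0.663 to 12.5 CPM in KO and 0.955 to 3.23 CPM in WT, were also highest in KO 2. Summed markers of other cells were 0.929 to 1.51 CPM in KO and 0.202 to 0.438 CPM in WT for 9 neutrophil genes (Retnlg had no read), 8.53 to 11.6 CPM in KO and 14.3 to 17.4 CPM in WT for 6 B cell genes, and 2.79 to 4.02 CPM in KO and 1.72 to 2.14 CPM in WT for 6 dendritic cell genes. They were 18.6 to 20.75 CPM in KO and 17.2 to 20.9 CPM in WT for 6 NK and CD8 T cell genes, and 1.36 to 2.70 CPM in KO and 1.56 to 2.20 CPM in WT for 5 platelet genes (Gp1bb had no read). EdgeR called Cd79b lower in KO (log2 fold change -0.69, adjusted p = 0.0106), 1 of 2 B cell markers tested. It also called Klrb1c lower (-1.14, adjusted p = 0.0353), 1 of 4 NK and CD8 T cell markers tested. Eomes, of the same list, had 0.71 and did not pass (adjusted p = 0.0560). No tested gene of the other lists of these cells was called. The part of the markers in the results was not tested. KO 2 and WT 1 had no read of the 4 Y-linked genes, which summed to between 301 and 450 CPM in the other KO libraries and 143 to 242 CPM in the other WT libraries (library-size CPM). The female-linked Xist had 88.6, 434.6 and 0 CPM in KO 1, 2 and 3, against 453, 255 and 129.5 CPM in WT 1, 2 and 3. KO 1, WT 2 and WT 3 thus held both male-linked and female-linked transcripts, and KO 3 held male-linked ones without Xist. The part of sex in the results was not tested.

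S100a10 (ENSMUSG00000041959, chromosome 3, 93555080 to 93564643, plus strand, mm10), the partner of Anxa2, had 489, 559 and 497 CPM in KO 1, 2 and 3, against 388, 340 and 384 CPM in WT 1, 2 and 3. Every KO library was above every WT library, with KO 2 the highest and WT 2 the lowest. It averaged 515 ± 38.5 CPM in KO and 371 ± 26.3 CPM in WT (SD, n = 3 each), a log2 fold change of 0.47 (SE 0.07, edgeR adjusted p = 0.00415). The call held in all 16 alternative settings, with log2 fold changes between 0.41 and 0.52.

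S100a6, also called calcyclin, is a binding partner of annexins and of the ubiquitin ligase adaptor encoded by Cacybp. It (ENSMUSG00000001025, chromosome 3, 90612882 to 90624181, plus strand) had 3202, 3866 and 4024 reads in the KO libraries, against 1440, 1383 and 1711 reads in the WT libraries. In CPM these were 161, 197 and 178 in KO and 78.9, 66.05 and 86.3 in WT. The lowest KO value was well above the highest WT value, and the gap between genotypes was wider than the spread within either. The mean was 178.5 ± 17.9 CPM in KO and 77.1 ± 10.2 CPM in WT (SD, n = 3 each), a log2 fold change of 1.21 (SE 0.10, edgeR adjusted p = 0.000252). It stayed between 1.11 and 1.30 and was called in all 16 alternatives. Without KO 2, the library richest in macrophage markers, the adjusted p was 0.000433. KO 3, with the lowest sum of these markers of all 6 libraries, had 178 CPM, and the part of the markers in the result was not tested.

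S100a6 was also higher relative to S100a10 in KO. Per kb of annotated exon, the ratio of S100a6 to S100a10 within a library was 0.292, 0.312 and 0.317 in the KO libraries, against 0.181, 0.172 and 0.199 in the WT libraries. The groups did not overlap. This ratio does not depend on how libraries are scaled to each other.

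S100a11, which binds annexin 1, takes part in membrane repair and lies next to S100a10, did not pass the test. It (ENSMUSG00000027907, chromosome 3, 93520488 to 93526287, plus strand) had 71.45, 86.9 and 57.8 CPM in KO, against 69.2, 56.8 and 68.7 CPM in WT. The genotypes overlapped, and the high mean of the KO group rested on KO 2. Its log2 fold change was 0.15 (SE 0.13, edgeR adjusted p = 0.584), and -0.011 without KO 2. The ratio of S100a11 to S100a10 per kb was 0.330 ± 0.0485 in KO and 0.414 ± 0.0159 in WT (SD, n = 3 each), and every KO library was below every WT library.

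S100a13, known for helping signal proteins such as FGF1 leave the cell without a signal peptide, rose by little and varied little among the KO libraries. It (ENSMUSG00000042312, chromosome 3, 90514435 to 90524581, plus strand) had 35.2, 34.6 and 36.7 CPM in KO, against 26.96, 26.94 and 31.6 CPM in WT. All KO values were above all WT values. Its log2 fold change was 0.32 (SE 0.08, edgeR adjusted p = 0.0409). The call was lost without WT 1 (adjusted p = 0.171), WT 2 (0.181), KO 1 (0.0857), KO 2 (0.0596) or KO 3 (0.0958) and with the share of male transcripts as a covariate (0.0602).

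S100a4, which binds non-muscle myosin and is best known from motile and metastatic cells, was almost unread. It (ENSMUSG00000001020, chromosome 3, 90603771 to 90606045, plus strand) had 1, 3 and 15 reads in KO 1, 2 and 3, against 5, 0 and 8 reads in WT 1, 2 and 3. The groups overlapped, and 2 KO libraries and 1 WT library were at or under 3 reads, the level that a count of 0 allows. The ratio of summed reads, KO over WT, was 1.40 with a 95% counting interval of 0.655 to 3.08. In GENCODE M21, 51.7% of its exon bases also belong to Gm42674, a gene on the same strand that had 0 reads in all libraries. How the counting treated reads shared by 2 genes is not stated, so the count of S100a4 is uncertain, and the part of this overlap in its low count was not tested.

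**Figure D1:**
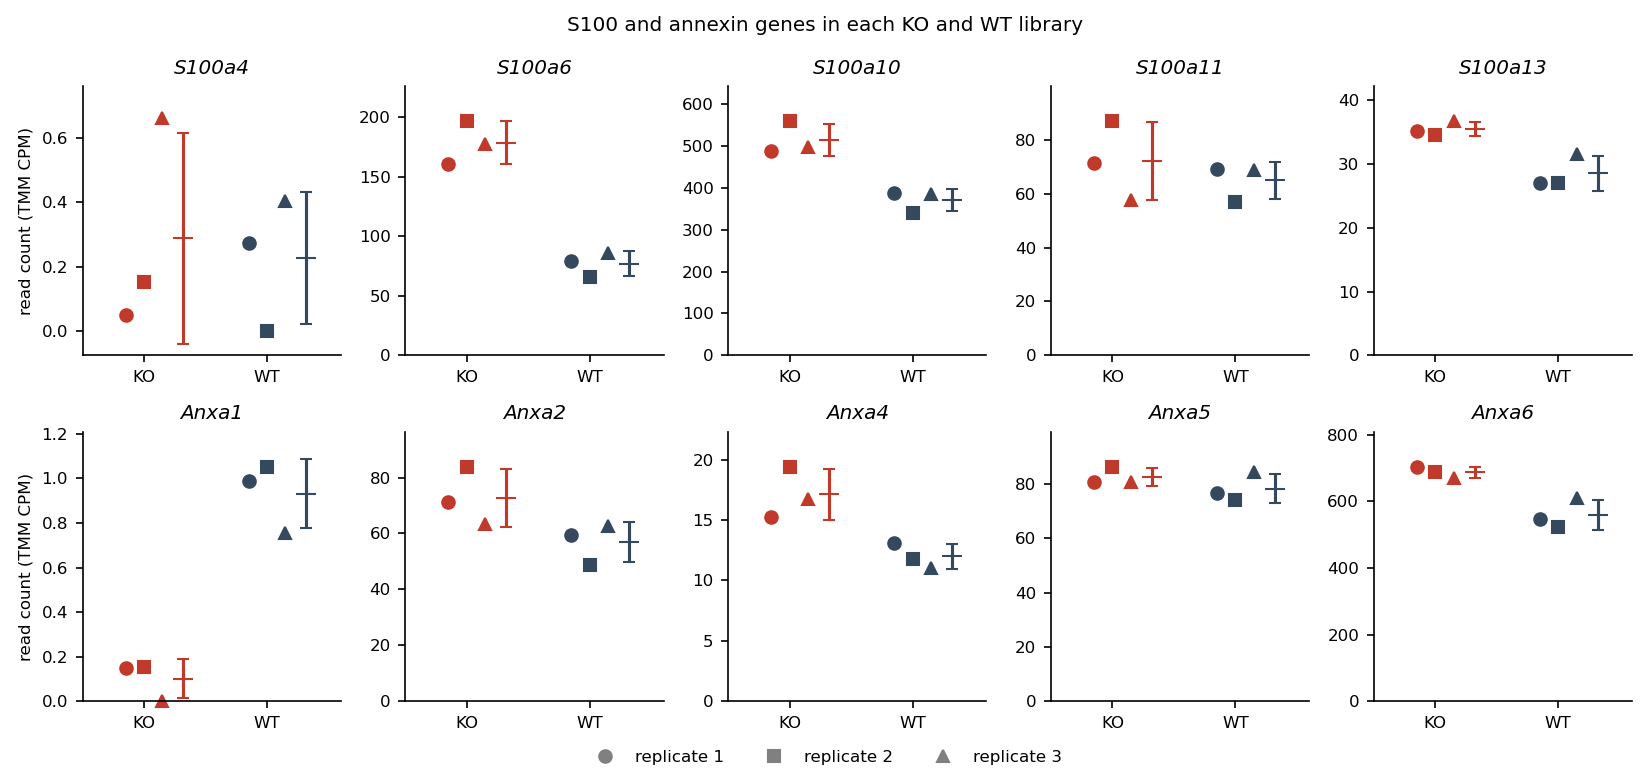
Read counts in TMM CPM of the 10 members in KO (red) and WT (dark blue) libraries, with replicate numbers as symbols and the mean ± SD of 3 libraries to the right of each group. KO and WT points are fully apart for S100a6, S100a10, S100a13, Anxa1, Anxa2, Anxa4 and Anxa6, and overlap for S100a4, S100a11 and Anxa5.

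Among the annexins, Anxa6 was the most abundant. It encodes a long annexin with a doubled core that organizes membrane domains and, in other cells, brings protein kinase C alpha and the Ras GTPase-activating protein Rasa1 to the membrane. It (ENSMUSG00000018340, chromosome 11, 54979108 to 55033445, minus strand) had 703, 689 and 670 CPM in KO, against 547, 523 and 610 CPM in WT. The KO libraries were close to each other and all above WT 3, the highest WT library. The mean was 687.5 ± 16.6 CPM in KO and 560.3 ± 44.8 CPM in WT (SD, n = 3 each), a log2 fold change of 0.30 (SE 0.06, edgeR adjusted p = 0.0193). The call was lost without WT 1 (adjusted p = 0.0963), WT 2 (0.0959) or KO 1 (0.0548).

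Anxa4, an annexin tied to membrane repair, rose at a much lower level per kb. It (ENSMUSG00000029994, chromosome 6, 86736840 to 86793584, minus strand) had 15.2, 19.4 and 16.7 CPM in KO, against 13.1, 11.8 and 11.04 CPM in WT. KO 2 was again the highest library, and KO 1 lay close above WT 1. The log2 fold change was 0.51 (SE 0.11, edgeR adjusted p = 0.0248). The call was lost without WT 1 (adjusted p = 0.0584), WT 2 (0.103), WT 3 (0.0936) or KO 2 (0.0663).

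Anxa2, the annexin that joins S100a10, lay on the border of the test. It (ENSMUSG00000032231, chromosome 9, 69453620 to 69491795, plus strand) had 71.1, 83.75 and 63.2 CPM in KO, against 59.5, 48.8 and 62.5 CPM in WT. KO 3 was barely above WT 3, so the groups touched without crossing. The log2 fold change was 0.35 (SE 0.11, edgeR adjusted p = 0.103). DESeq2 called 7.88% of the genes it tested (3.83% higher and 4.05% lower in KO), and the fit with a covariate for male transcripts 6.99% (3.57% higher and 3.42% lower). Anxa2 passed in DESeq2 (adjusted p = 0.0176), with the share of male transcripts as a covariate (0.0281), with no filter on low counts (0.000178) and without KO 3 (0.0302), and its adjusted p reached 0.309 without WT 2. The ratio of Anxa2 to S100a10 per kb was 0.0457 ± 0.00389 in KO and 0.0498 ± 0.00316 in WT (SD, n = 3 each), and the groups overlapped.

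Anxa5, the phosphatidylserine binder used to stain dying cells, overlapped between genotypes. It (ENSMUSG00000027712, chromosome 3, 36448923 to 36475894, minus strand) had 80.7, 86.2 and 80.75 CPM in KO, against 76.6, 74.0 and 84.25 CPM in WT. Its log2 fold change was 0.08 (SE 0.06, edgeR adjusted p = 0.532), and it was called in 0 of 16 alternatives.

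Anxa1, the glucocorticoid-induced annexin that limits inflammation and signals through formyl peptide receptors, was the member that fell. It (ENSMUSG00000024659, chromosome 19, 20373428 to 20390944, minus strand) had 3, 3 and 0 reads in KO 1, 2 and 3, against 18, 22 and 15 reads in WT 1, 2 and 3. No KO library had more than 3 reads, while each WT library had at least 15. Summed over a genotype, the ratio of KO to WT was 0.104 with a 95% counting interval of 0.0367 to 0.242. The interval covers counting error alone and not the spread between libraries. Anxa1 passed the filter on low counts only through the WT libraries, so the ratio, its interval and the edgeR result are a description. The adjusted p was 0.0117, and it was 0.0594 without WT 1 and 0.0657 without WT 2. Its mean level in WT was 0.931 ± 0.155 CPM (SD, n = 3). DESeq2 gave it no adjusted p. Its receptor gene Fpr1 had 0.983 ± 0.923 CPM in KO and 0.434 ± 0.197 CPM in WT (SD, n = 3 each), and did not pass (edgeR adjusted p = 0.391). The high KO mean of Fpr1 rested on KO 2, with 0.603, 2.035 and 0.3095 CPM in KO 1, 2 and 3. Fpr2 had at most 4 reads in a library.

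Across the alternative settings, only S100a6 and S100a10 of the members were called every time. With WT 1 or WT 2 left out, 2 of the 9 members tested were called in each case, and these were S100a6 and S100a10. The count over all genes fell to 344 in both cases, against 877 with all libraries. The number of members called was 5 to 7 under the other normalizations, filters, tools and covariates.

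**Figure D2:**
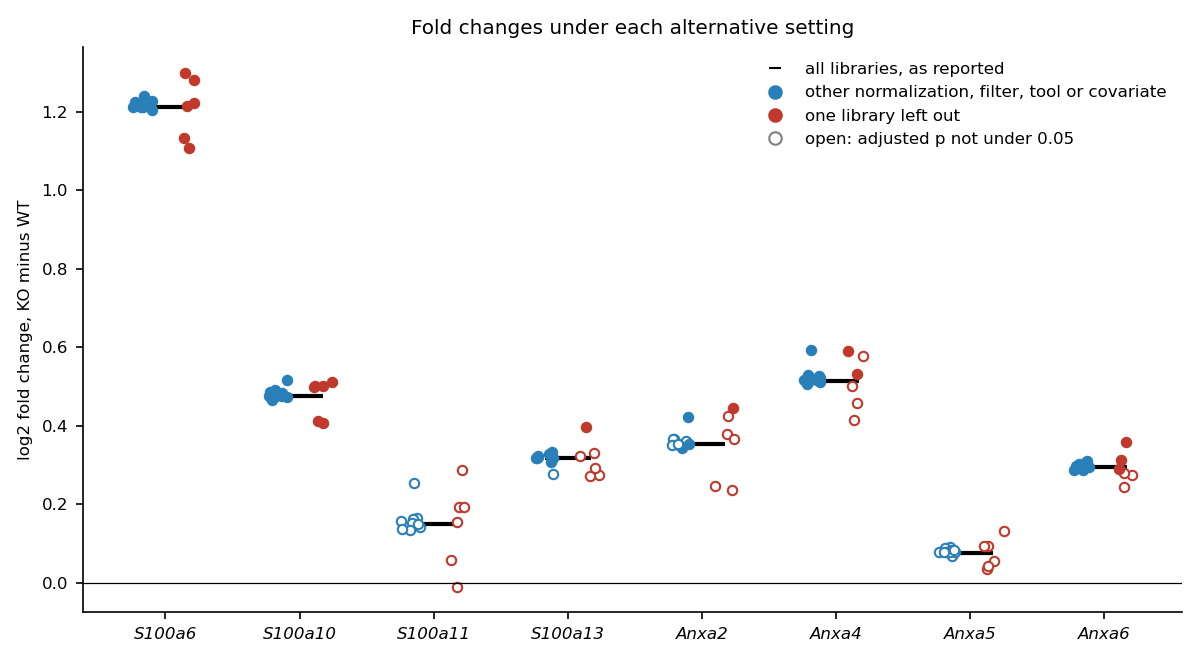
Log2 fold change, KO minus WT, of 8 members under each alternative (Anxa1, at -3.61 to -2.57, lies outside the range and is left out). Black bars are the values with all libraries, blue points other normalizations, filters, tools, the block or covariate, red points fits with 1 library left out, and open points have an adjusted p of 0.05 or more; S100a6 and S100a10 have filled points throughout.

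The members differed widely in level. Per kb of annotated exon, the order in KO was S100a10 (425 ± 31.8 CPM per kb), Anxa6 (234.6 ± 5.65), S100a11 (141.0 ± 28.5), S100a6 (130.6 ± 13.1), S100a13 (49.6 ± 1.52), Anxa5 (46.45 ± 1.78), Anxa2 (19.5 ± 2.77), Anxa4 (3.68 ± 0.454), S100a4 (0.494 ± 0.562) and Anxa1 (0.0347 ± 0.0301), each over 3 libraries. In WT the order was S100a10 (306 ± 21.7 CPM per kb), Anxa6 (191.2 ± 15.3), S100a11 (127.0 ± 13.7), S100a6 (56.4 ± 7.48), Anxa5 (44.0 ± 3.0), S100a13 (39.9 ± 3.76), Anxa2 (15.3 ± 1.94), Anxa4 (2.58 ± 0.224), S100a4 (0.387 ± 0.353) and Anxa1 (0.320 ± 0.0532). S100a6 was level with S100a11 in KO, where their ranges overlapped, but below it in each WT library. S100a13 and Anxa5 overlapped in both genotypes, and S100a4 and Anxa1 overlapped in WT. In KO, S100a4 and Anxa1 were each at or under 3 reads in at least 2 libraries, so their order there was not detectable at this depth. The other neighbours in these orders had separate ranges.

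**Figure D3:**
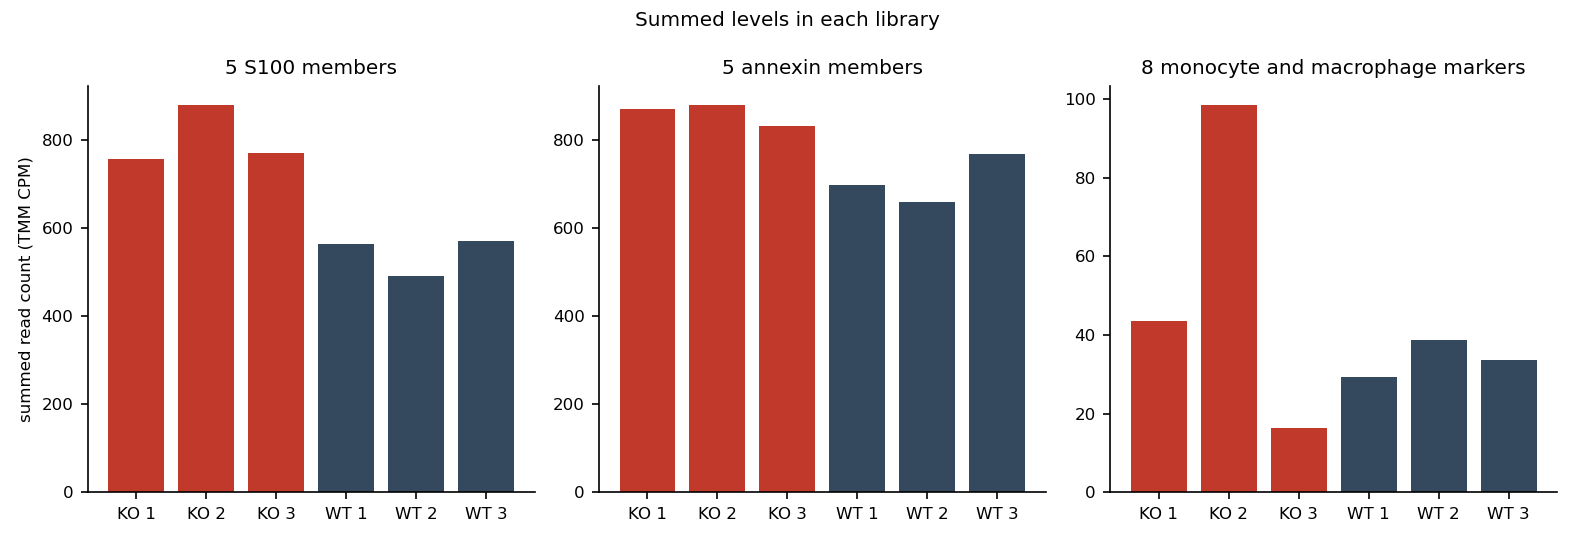
Summed TMM CPM of the 5 S100 members, the 5 annexin members and 8 monocyte and macrophage markers in each library, KO in red and WT in dark blue. The S100 sum is 756.5 to 878 CPM in KO and 490 to 571 CPM in WT, the annexin sum 831 to 879 CPM in KO and 659 to 769 CPM in WT, and the marker sum is highest in KO 2. Most of the S100 sum is S100a10 (mean 515 CPM in KO and 371 CPM in WT). Most of the annexin sum is Anxa6 (mean 687.5 CPM in KO and 560.3 CPM in WT).

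Library KO 2 held the highest KO value of 6 of the 8 members tested other than Anxa1, and WT 2 the lowest WT value of 7 of 8. KO 2 also had the highest sum of macrophage markers. In KO 3, where this sum was below that of any WT library, S100a6, S100a10, S100a13, Anxa4 and Anxa6 were above all WT values. Anxa2 was barely so (63.2 CPM, against 62.5 CPM in WT 3), and S100a11, Anxa5 and Anxa1 were not. All 7 macrophage genes tested had a positive log2 fold change, with a median of 0.44, beside 0.32 for the members. EdgeR called 0 of the 7, beside 6.45% of all genes tested. At an unadjusted edgeR p under 0.05 were 0 of the 7, beside 2780 of all 13602 genes tested. The KO values of the 7 were widely spread. Csf1r, the receptor of the macrophage growth factor, had 23.6, 52.05 and 7.34 CPM in KO, against 14.3, 17.9 and 16.5 CPM in WT. Exons of Csf1r share 873 bases with Hmgxb3 on the opposite strand, which had 6789 reads in all, against 2620 of Csf1r. The count of Csf1r, and with it the macrophage sum, is therefore uncertain. Without KO 2, S100a6, S100a10, Anxa6 and Anxa1 were called, and Anxa4 and S100a13 were not. The part of macrophage RNA in the levels of the members was not tested.

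Of the other genes of both families, most had too few reads to be tested. Among 11 other S100 genes that were listed only S100a1 was tested (log2 fold change 0.29, SE 0.25, edgeR adjusted p = 0.568). The neutrophil genes S100a8 and S100a9 had at most 4 reads in a library. S100a2, in the table but outside that list, had at most 7 reads in a library and was not tested. Of 7 other annexins 3 were tested, and 1 of these, Anxa9, rose (33.3% called, beside 6.45% of all genes tested). It had 36, 23 and 35 reads in KO, against 14, 11 and 11 reads in WT. All KO libraries were above all WT libraries, at low counts, and the log2 fold change was 1.29 (SE 0.31, edgeR adjusted p = 0.0376). That call was lost in DESeq2 (adjusted p = 0.0707), with the male covariate (0.0728), with the replicate block (0.0557) and without WT 1 (0.0862), WT 2 (0.170), WT 3 (0.137), KO 1 (0.114) or KO 3 (0.0750). Exons of Anxa9 share 71 bases with Mindy1 on the opposite strand, which had 3584 reads in all, against 130 of Anxa9, so its count is uncertain. Anxa7 (log2 fold change -0.14, adjusted p = 0.245) and Anxa11 (0.09, adjusted p = 0.466) did not pass.

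**Figure D4:**
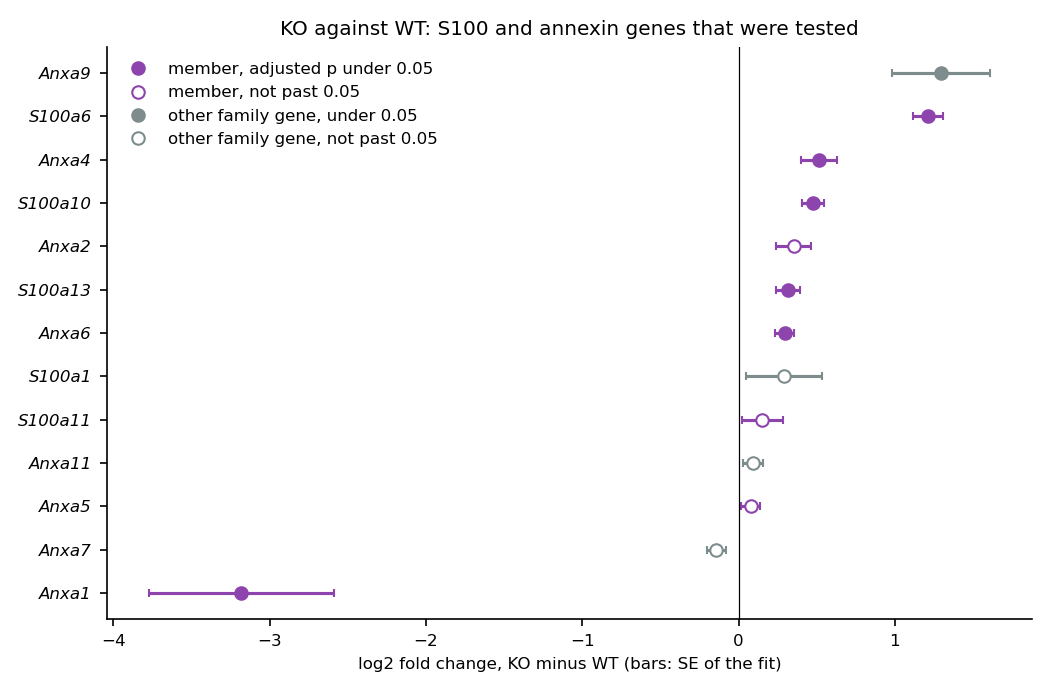
Log2 fold change, KO minus WT, with its SE for the S100 and annexin genes that were tested, members in purple and other family genes in grey; filled points have an edgeR adjusted p under 0.05. All points but Anxa7 and Anxa1 lie to the right of 0, and S100a6 and Anxa9 have the highest values.

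Of 23 partners, targets and receptors of these proteins, 16 were tested, with 1 higher and 1 lower in KO. This was 12.5% called, beside 6.45% of all genes tested. Ahnak, the giant scaffold that the pair of Anxa2 and S100a10 holds at the membrane, had 840, 809 and 912 CPM in KO, against 655, 537 and 645 CPM in WT. Its groups were apart, and its log2 fold change of 0.48 (SE 0.08, edgeR adjusted p = 0.00730) was close in size to that of S100a10. Prkca, the kinase that Anxa6 recruits, fell to 207 ± 4.64 CPM in KO, against 245.7 ± 4.47 CPM in WT (SD, n = 3 each; log2 fold change -0.25, SE 0.04, edgeR adjusted p = 0.0107). That call was lost without WT 1 (adjusted p = 0.0584) and WT 2 (0.0505). Rasa1, the myosin heavy chain gene Myh9 and Cacybp did not pass, with log2 fold changes of 0.05, -0.02 and 0.33. The other EF-hand proteins, such as the calmodulins, were mostly not called: 2 of 25 were higher and 1 lower, with a median of -0.00633. This was 12% called, beside the same 6.45%. Tesc (log2 fold change 0.48, adjusted p = 0.00507) and Nucb2 (0.58, adjusted p = 0.0328) rose and the reticulocalbin gene Rcn1 fell (-0.45, adjusted p = 0.000818). The call of Nucb2 was lost without WT 1, WT 2, KO 1 or KO 2 (highest adjusted p = 0.144).

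Genes that accompany S100 and annexin genes in memory T cells were divided. Of 17 tested, 3 were higher and 1 lower (23.5% called, beside 6.45% of all genes tested), with a median log2 fold change of 0.06. Lgals1, which encodes galectin-1, had 180.5, 208 and 185.5 CPM in KO, against 121, 104 and 137 CPM in WT (log2 fold change 0.66, SE 0.09, edgeR adjusted p = 0.00336). Cd44 (0.57) and Ahnak were the other rises, and Id2 fell (-0.35, adjusted p = 0.0117, and 0.0619 without WT 1). Vim, encoding vimentin, had a log2 fold change of 0.31 and did not pass (adjusted p = 0.0580, and between 2.75e-05 and 0.229 over the alternatives). Of 12 genes of naive-like T cells 1 was higher (Dapl1, 0.79) and 1 lower (Satb1, -0.47), with 16.7% called and a median of -0.10. Dapl1 was called in 10 of 16 alternatives. The markers of these lists were chosen with results of this contrast known. Of 20 effector Treg genes 9 were higher and 4 lower (65% called, beside 6.45% of all genes tested; median 0.22). Gzmb, encoding granzyme B, rose, at 80.4, 89.0 and 107 CPM in KO, against 24.4, 21.9 and 25.2 CPM in WT. Of the other rises, Ccr6 (0.95), Rora (0.63) and Ccr8 (0.555) had the smallest edgeR adjusted p (0.000324, 0.00266 and 0.00475). The 4 that fell were Il10 (-1.26), Lag3 (-1.10), Il1rl1 (-0.92) and Klrg1 (-0.74), encoding an anti-inflammatory cytokine, an inhibitory receptor, the IL-33 receptor and another inhibitory receptor. Each of these 4 calls was lost without WT 1 (adjusted p = 0.0590, 0.146, 0.0631 and 0.123 in that order) and without WT 2 (0.0548, 0.127, 0.0541 and 0.0515). Lag3 was also lost in DESeq2 (0.0778) and without KO 2 (0.0591) or KO 3 (0.0623), and Klrg1 without WT 3 (0.0827) or KO 1 (0.0797).

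All 5 S100 members lie on chromosome 3, in a stretch that holds 14 S100 genes between 90511034 and 93564643. From 500000 bases before to 500000 bases after it, the table lists 177 genes, of which 24 were tested, 4 of them members. Of the 20 other genes tested, 0 were higher and 1 was lower in KO in edgeR (5% called, beside 6.45% of all genes tested). At an unadjusted edgeR p under 0.05 were 2 of the 20, beside 2780 of all 13602 genes tested. The median log2 fold change of the 20 was 0.04. No other gene than the lower one was called in this stretch in any of the 16 alternatives. The lower gene was Gm5541, a predicted gene 3015.8 kb past the start of S100a6 (S100a10 starts at 2942.2 kb), which had 2.91, 2.19 and 3.10 CPM in KO, against 7.29, 5.16 and 8.07 CPM in WT (log2 fold change -1.32, SE 0.21, adjusted p = 0.00677). Of the genes before the first S100 gene, Ilf2 and Snapin had log2 fold changes of -0.03 and -0.04. S100a1 and S100a13 start next to each other on opposite strands, and their exons do not overlap in GENCODE M21.

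**Figure D5:**
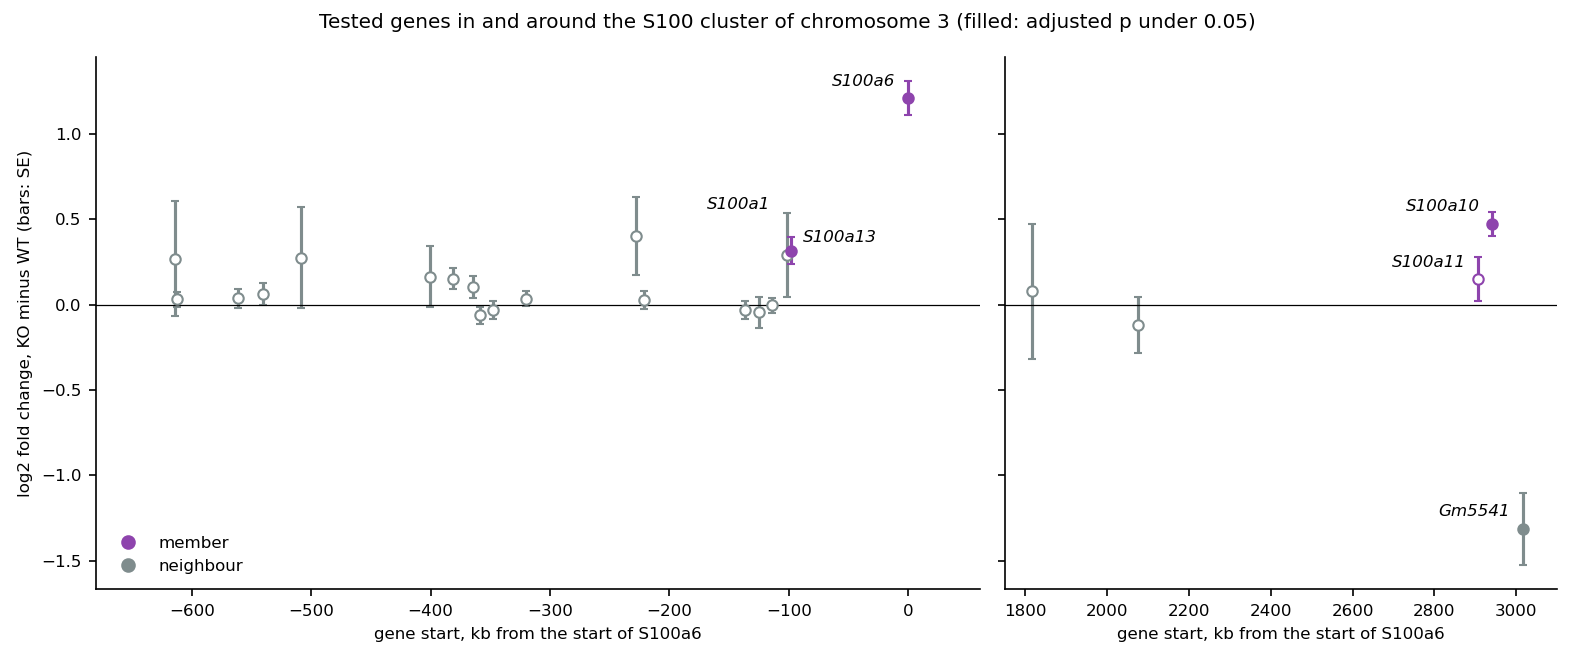
Log2 fold change, KO minus WT, with its SE for the 24 tested genes in and around the S100 stretch of chromosome 3, by distance of the gene start from that of S100a6 in kb; the 2 panels leave out a gap with no tested gene. Members are purple and neighbours grey, filled where the edgeR adjusted p is under 0.05; the neighbours lie between -0.12 and 0.41 except Gm5541, at -1.32.

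The genes whose levels over the 6 libraries were most like those of S100a6 were Jarid2, Pnrc2, Rbm41, Adap1 and Arntl, by Pearson correlation of log2 CPM (0.995 to 0.997) among 8651 genes averaging 10 CPM or more. The 6 points carry the genotype difference, so a high correlation is common, and 3.65% of these genes had a correlation over 0.9. Of the 5, Adap1 had the largest change, with 84.97, 93.3 and 85.65 CPM in KO, against 53.6, 45.6 and 52.6 CPM in WT (log2 fold change 0.80, adjusted p = 0.000324). The genes most like Anxa6, the annexin with the highest mean, were Bbip1, Ssbp3, Cep192, Ncapd2 and Ppp4r3b (0.990 to 0.999), and 2.45% of genes had a correlation with it over 0.9. Of these, Ncapd2 was called (log2 fold change 0.22, adjusted p = 0.0470, called in 8 of 16 alternatives) and the other 4 were not.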

How the data were processed

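The authors deposited unnormalized read counts for each gene. Tools named in the submitters' processing notes are HISAT2 2.1.0, fastp 0.23.2, DESeq2 1.34.0 and Picard, with mm10 as the build. The counter, its strand setting and the annotation release are not given in the sources used. If strand was ignored, a gene and an overlapping antisense gene share reads.

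Genes were filtered by filterByExpr (minimum count 10, minimum total 15), normalized by TMM and tested with edgeR's quasi-likelihood test (R 4.3.3, edgeR 4.0.16), with neither block nor covariate, adjusted over 13602 genes. DESeq2 1.42.0 and limma-voom (limma 3.58.1) were alternatives, beside other normalizations, filters, a replicate block, a covariate for male-linked transcripts, removal of markers and each library left out. The steps were tested on simulated counts. Exon lengths and overlaps came from GENCODE M21 on mm10. An exact permutation test of 3 libraries against 3 cannot go below p = 0.1. A count of 0 allows up to 3 counts, and intervals cover counting error only. Replicates within a genotype differed by more than sampling noise (chi-square per degree of freedom of at least 5.03). Symbols turned into dates (27) were restored from the gene identifier.

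The members and gene lists were chosen with earlier results of these data known. Genes named are the members, Smarcd2, up to 4 called genes of each list, called neighbours in the S100 stretch and the 5 genes most like S100a6 and Anxa6. Other genes, among them Rasa1, Myh9, Cacybp, Fpr1, Fpr2, Vim, Foxp3, Il10, Lag3, Il1rl1, Klrg1, Ilf2, Snapin, S100a8, S100a9, Csf1r, Eomes and Xist, were chosen after their values were seen.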

Additional observations from a re-analysis of the deposited data

How the results depend on the processing

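Over 142 combinations of a member and an alternative, direction and side of the threshold held in 122, the call was lost in 15, gained in 4, and the direction turned in 1, S100a11 without KO 2, with log2 fold changes from -0.011 to 0.29 as each library was left out. Csf1r also turned without KO 2, with a range of -0.091 to 1.22. Without any 1 library, 344 to 848 genes in all, 2 to 6 members, 0 to 1 other family genes and 1 to 3 partners were called. With no filter, 1624 genes in all and 4 partners were called. Of other family genes, 0 were called with a mean of at least 2 CPM, in DESeq2, with the male covariate or with the replicate block. With the replicate block, 738 genes in all and 6 members were called. Deviations of same-numbered libraries from their group means had correlations of -0.145, -0.045 and 0.155. With 3 libraries per genotype, these values cannot decide whether the numbers pair libraries. Low counts limit S100a4 and Anxa1. The causes of these shifts were not tested.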
